A study of Rattus norvegicus with 6 samples.

Results

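The genes described here mark the neural lineages other than neurons, namely radial glia, astrocytes and the oligodendrocyte lineage, in cultures of rat cortical neurons. They were listed by name as 32 symbols. A probe set naming exactly 1 gene measured 28 of them, out of 14506 genes measured in all: 9 astrocyte genes, 10 genes of radial glia and Notch signalling, and 9 genes of the oligodendrocyte lineage. The symbols Glul, Sox9, Tnc and Olig2 were not analysed here. Where a gene had several probe sets, the one with the highest mean was used, a choice that arose only for Mbp.

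The neurons came from the cortex of Sprague-Dawley rat embryos at day 18 and had spent 3 days in NB-N2 medium. One-colour Affymetrix arrays were run on RNA of 3 untreated samples and of 3 samples given C1q, the recognition protein of the classical complement pathway, at 10 nM for 3 h. Strain, age, tissue, time in culture and medium were the same in both groups, and the labels name no genetic change, no vehicle control and no source of the C1q. They also do not say whether samples came from separate cultures or pooled embryos, so the p-values measure only the spread between these samples, which may be technical.

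Radial glia line the ventricle of the embryonic cortex, divide there, and give rise first to neurons and later to glia. Notch signalling keeps them as progenitors: a ligand such as Delta-like on a young neuron activates the Notch receptor of its neighbour, and the repressors of the Hes family then block the genes of neuronal differentiation. Astrocytes mature around and after birth and take up glutamate, potassium and water. Oligodendrocyte precursors carry the PDGF receptor alpha, pass through a stage before myelination, and then make myelin proteins. Several of these genes are not particular to 1 lineage. Vimentin is also made by fibroblasts and endothelium, Pdgfra by meningeal fibroblasts, Cspg4 by pericytes, and the Mbp locus also gives transcripts in neurons.

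The values are deposited intensities on a linear scale. Brightness depends on the probes of each probe set as well as on the RNA, so a difference in intensity between genes is not read as one in RNA. A filter on mean intensity removed the dimmest probe sets from the tests, at a threshold of 94.4, and left 60% of them. No detection calls were used, so passing the filter does not show that a gene was expressed. Array medians lay between 147 and 155. All 15 neuron markers passed, as did 66.5% of all genes, so passing alone does not check the neuron label. Tubb3, a neuronal tubulin, read 7719 to 8549 over the 6 arrays, Dcx, a microtubule protein of young neurons, 8361 to 9005, Map2, a dendritic microtubule protein, 4954 to 5749, and Rbfox3, which encodes the nuclear antigen NeuN, 1145 to 1181. In these bulk samples, fewer cells of a type and less RNA per cell cannot be told apart.

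Of the 28 measured lineage markers, 23 passed the filter, or 82.1%, against 66.5% of all genes. They were 7 of 9 astrocyte, 8 of 10 radial glia and Notch, and 8 of 9 oligodendrocyte lineage genes. Gfap, Gjb6, Hes1, Hopx and Cspg4 lay below it. Of the markers of other non-neuronal cells, 3 of 13 passed for microglia, 2 of 10 for endothelium and 7 of 12 for mural and meningeal cells. These shares also depend on the probes of each gene, and the difference between them was not tested.

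**Figure D1:**
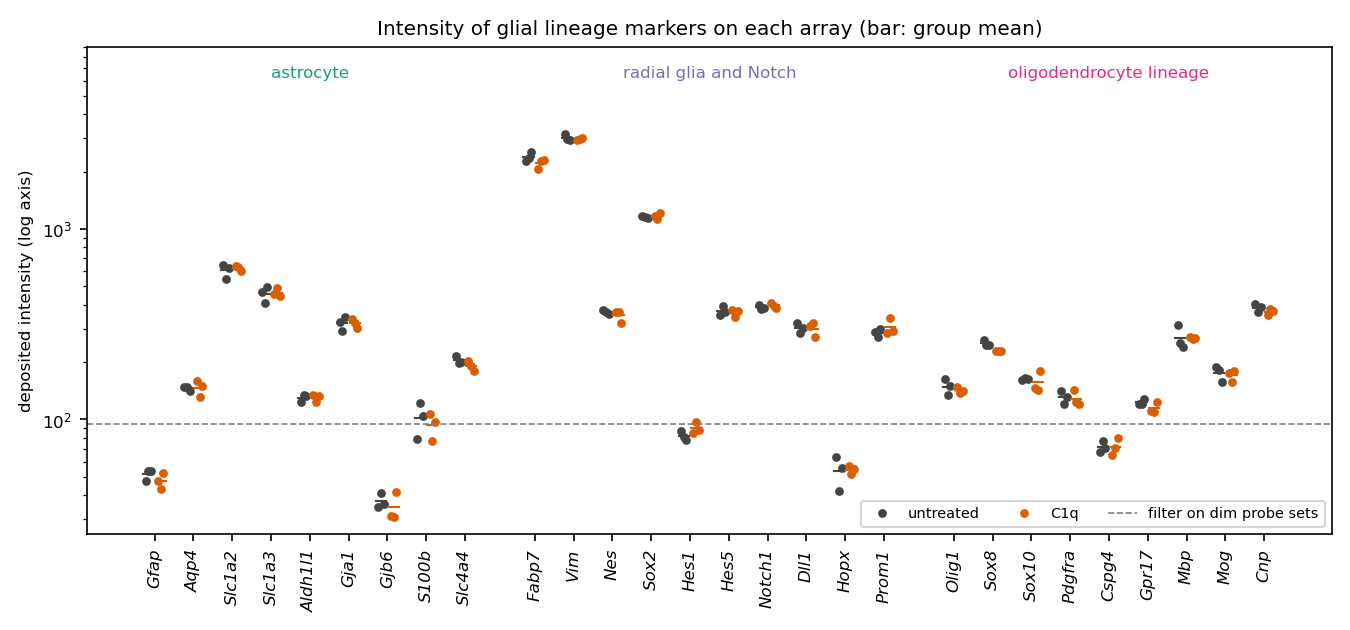
Deposited intensity of each of the 28 measured markers on the 6 arrays, on a log axis, with untreated arrays in grey, C1q arrays in orange and a short bar at each group mean; the dashed line is the filter at 94.4. The points of both groups overlap for every tested marker but Sox8, whose 3 C1q arrays lie at 228 below untreated values of 245 to 261.

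Among the astrocyte genes, the transporters and the gap junction gene Gja1 were well above the filter. The gap junction gene Gjb6 and Gfap, a filament gene used as an astrocyte marker, were below it. Slc1a2, the glutamate transporter GLT-1, read 649, 545 and 623 untreated and 638, 633 and 605 after C1q, where each group's 3 values stand in the order of the array numbers here and throughout. Slc1a3, the glutamate transporter GLAST that radial glia make as well, read 468, 411 and 493 untreated and 455, 492 and 442 after C1q. Gja1, which encodes the main connexin of astrocyte gap junctions, read 326, 290 and 343 untreated and 338, 322 and 301 after C1q. All 3 genes were lowest on untreated array 2, as were 29.3% of all tested probe sets. The C1q values of the 3 genes all lay inside the untreated range.

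Slc4a4, a sodium bicarbonate cotransporter, read 216, 198 and 201 untreated and 202, 191 and 180 after C1q, so that 2 of 3 C1q arrays were below every untreated array. Aqp4, the water channel of astrocyte endfeet, read 148, 149 and 141 untreated and 158, 132 and 150 after C1q, with the lowest and the highest value both among the C1q arrays. Aldh1l1, a folate enzyme used as an astrocyte marker, read 123, 134 and 133 untreated and 135, 124 and 133 after C1q. S100b, a calcium-binding protein gene, read 78.8, 122 and 104 untreated and 107, 77.5 and 96.7 after C1q. It varied most among the tested markers, with values on either side of the filter in each group. Gfap, the glial filament gene, read 47.7, 53.7 and 53.7 untreated and 47.3, 43.2 and 52.3 after C1q, below the filter on every array. Gjb6, which encodes another astrocyte connexin, read 30.8 to 41.7.

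No astrocyte gene changed after C1q by the test used. Of the 7 tested, 0 were called by limma at an adjusted p under 0.05, over all 17529 probe sets tested, of which 0% were called higher and 0% lower. Means were higher for 5 and lower for 2. The log2 fold changes ran from -0.09 for Slc4a4 to 0.05 for Slc1a2. Fold changes, taken on the log2(intensity + 16) scale, which understates changes of dim genes, were 1.03 for Slc1a2 with a 95% interval of 0.929 to 1.15, 0.937 for Slc4a4 with 0.824 to 1.07, and 1.00 for Gja1 with 0.886 to 1.14. For S100b the fold change was 0.941 with the widest interval of any tested marker, 0.747 to 1.18. Over the 9 measured astrocyte genes the median log2 fold change was 0.0021, against -0.019 over all genes. With an array left out it ran from -0.033 to 0.00093, so its sign was not stable.

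Vim, Sox2 and the Notch receptor gene Notch1 varied least in the radial glia and Notch list. Their within-group SD was 0.039, 0.037 and 0.037 on the log2 scale. The median SD was 0.083 over all tested probe sets, 0.074 over tested genes and 0.060 over the 15 neuron markers. No comparison at matched intensity was made. Vim, which encodes vimentin, read 3133, 2957 and 2940 untreated and 2918, 2980 and 3007 after C1q. Nes, which encodes the progenitor filament nestin, read 377, 367 and 358 untreated and 368, 368 and 321 after C1q, where C1q array 3 alone fell outside the untreated range. Sox2, a transcription factor of neural progenitors, read 1163, 1158 and 1140 untreated and 1165, 1130 and 1213 after C1q. Its C1q arrays held both the lowest and the highest of the 6 values. The fold changes were 0.987 for Vim (95% interval 0.924 to 1.05) and 1.01 for Sox2 (95% interval 0.941 to 1.09). Prom1, a membrane protein gene of stem and ciliated cells, read 289, 270 and 299 untreated and 286, 339 and 292 after C1q, with the high value on C1q array 2 alone. Hopx, a homeodomain protein gene of outer radial glia, lay below the filter at 42.1 to 63.8.

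Fabp7, the brain lipid-binding protein of radial glia, had the lowest fold change of the radial glia genes. It read 2268, 2357 and 2542 untreated and 2055, 2270 and 2308 after C1q. C1q array 1 was below every untreated array, and the other C1q arrays lay within the untreated range. The untreated mean was 2389 ± 140 and the C1q mean 2211 ± 136 (SD, n = 3 each). The fold change fitted on the log2(intensity + 16) scale was 0.926 (95% interval 0.848 to 1.01). The limma test gave an adjusted p of 0.9999. With array weights, untreated array 3 had a weight of 5.51 against 0.335 to 1.81 for the other arrays. That fit called 130 probe sets higher and 317 lower, of 17529 tested. Fabp7 was the single marker called in it, at a fold change of 0.863 and an adjusted p of 0.0262 in limma. Untreated array 3 is also the array on which Fabp7 read highest, at 2542.

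From ligand to receptor to target, no Notch gene was called. Dll1, the Delta-like ligand, read 320, 283 and 301 untreated and 311, 319 and 269 after C1q. Notch1, the receptor, read 398, 382 and 386 untreated and 411, 394 and 386 after C1q. The fold change from the fit was 1.02 (95% interval 0.927 to 1.13). Hes5, a repressor that Notch induces in progenitors, read 352, 393 and 368 untreated and 377, 345 and 370 after C1q. Its fitted fold change was 0.982 (95% interval 0.881 to 1.09). Hes1, the related repressor that other signals induce too, lay below the filter, at 87.0, 80.9 and 78.0 untreated and 84.6, 97.5 and 88.5 after C1q. Its values overlap between the groups, and it was not tested.

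Among the 8 tested radial glia and Notch genes 0 were called, with 3 means higher and 5 lower, where 3 were lower with quantile normalization and 2 with median centring. The median log2 fold change was -0.015 over these 8 and 0.0042 over all 10 measured, so its sign depended on the dim genes. Of 28 further Notch pathway genes measured, 26 were tested, 0 were called, and 11 means were higher and 15 lower, with 11 lower under each of these scalings. Mfng, a glycosyltransferase that modifies Notch receptors, had the highest fold change of these, 1.12 (95% interval 0.995 to 1.26), with means of 399 ± 35.7 in untreated and 449 ± 26.4 in C1q samples (SD, n = 3 each). The Notch target gene Hey1 had the lowest, at 0.945. Of 17 tested regulators of glial fate, which include the nuclear factor I genes and the JAK-STAT pathway, 0 were called, 8 means were higher and 9 lower, or 7 and 5 lower under the same scalings in that order. Their fold changes ran from 0.947 for Id2, an inhibitor of bHLH factors, to 1.04 for the zinc finger gene Zbtb20.

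In the oligodendrocyte lineage all 8 tested genes had a lower mean after C1q, and 0 were called. Among all tested probe sets 63.3% of means were lower as well. With quantile normalization or median centring, 6 of the 8 were lower, against 49.2% and 44.6% of all tested probe sets. The median log2 fold change of the 9 measured genes was -0.052, against -0.019 over all genes, and it was -0.0055 without C1q array 2. The list as a whole was not tested.

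Of the transcription factors of the lineage, Sox8 read 261, 245 and 246 untreated and 228, 228 and 228 after C1q. It was the 1 marker of 23 tested, or 4.35%, whose groups did not overlap, against 5.72% of tested probe sets and 4.96% of tested genes. The untreated mean was 251 ± 8.69 and the C1q mean 228 ± 0.361 (SD, n = 3 each). The fitted fold change on the log2(intensity + 16) scale was 0.915 (95% interval 0.817 to 1.02), and the adjusted p in limma was 0.9999. The related factor Sox10 read 161, 166 and 162 untreated and 146, 143 and 180 after C1q, so that C1q array 3 lay above and the other C1q arrays below every untreated array. Olig1, a bHLH factor of the lineage, read 162, 135 and 149 untreated and 148, 138 and 141 after C1q, all within the untreated range.

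The precursor genes Pdgfra and Gpr17 were dim but passed the filter. Pdgfra, the receptor through which platelet-derived growth factor drives precursors to divide, read 141, 120 and 131 untreated and 143, 123 and 120 after C1q. Gpr17, a receptor of the stage before myelination, read 120, 120 and 128 untreated and 110, 110 and 123 after C1q. Its fitted fold change was 0.938 (95% interval 0.809 to 1.09). Cspg4, the NG2 proteoglycan gene of precursors, lay below the filter at 65.4 to 80.2.

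The myelin genes Mbp, Mog and Cnp all passed the filter. Cnp, a phosphodiesterase of the lineage, read 405, 365 and 391 untreated and 351, 378 and 370 after C1q, with C1q array 1 below the untreated range. Its fold change was 0.950 (95% interval 0.855 to 1.06). Mog, a glycoprotein of the outer myelin surface, read 189, 181 and 158 untreated and 175, 158 and 179 after C1q, so that its groups overlap almost wholly. Mbp, which encodes myelin basic protein, read 313, 251 and 241 untreated and 269, 263 and 267 after C1q. Untreated array 1 stands above the other 5 arrays for Mbp, and its log2 fold change of -0.0015 became 0.11 without that array. The 95% interval of its fold change was 0.864 to 1.16. The second probe set of Mbp read 114 to 135 untreated and 102 to 146 after C1q, with a fold change of 1.01.

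**Figure D2:**
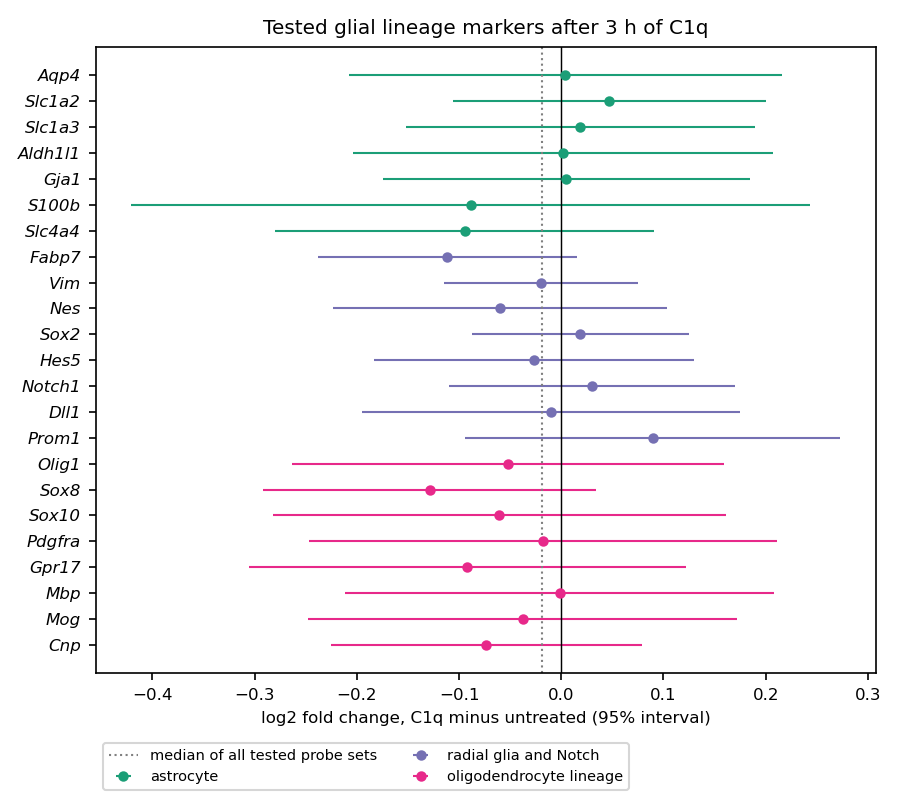
Log2 fold change of the 23 tested markers, C1q minus untreated, with 95% intervals from the limma fit, coloured by lineage; the dotted line is the median of all tested probe sets at -0.019. The interval of each marker includes 0, and the 8 oligodendrocyte lineage genes lie left of it.

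Over all 23 tested markers, 0 were called and 0 had an unadjusted p under 0.05 in limma. Of all tested probe sets 437 of 17529 had one, and of tested genes, with 1 probe set each, 66 of 9652. Calls numbered 0 among the markers in each alternative fit too, except array weights with its 1 call, Fabp7. Array weights gave 130 higher and 317 lower calls over all probe sets. Without untreated array 2 there were 28 higher and 10 lower calls over all probe sets, of which 0 were markers. Means were higher for 8 markers and lower for 15, or 65.2%, against 63.3% of all tested probe sets, and 11 were lower with quantile normalization and 10 with median centring. Fold changes ran from 0.915 for Sox8 to 1.06 for Prom1, and the interval of each marker included 1. For 16 of the 23 the whole interval lay within 1.2-fold in either direction, and for all 23 within 1.5-fold. S100b had the widest. These intervals hold for the intensities. Where background makes up part of a dim value, the change of the RNA could be larger than the interval shows.

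The markers differed between arrays as well as between genes, and the arrays were compared by each gene's log2 deviation from its own mean over the 6 arrays. Untreated array 1 was the highest array for 11 of the 28 markers, and for 42.0% of all tested probe sets. On that array the 9 oligodendrocyte lineage genes had a median deviation of 0.11 and 8 of the 9 were above their mean, the exception being Cspg4. The median over all tested probe sets there was 0.055, and 73.1% of them were above their mean. All oligodendrocyte lineage genes but Cnp and Cspg4 have a mean between the filter and 300. In that band the median over 6523 probe sets was 0.019 on untreated array 1, and 55.5% were above their mean. It was 0.064 for probe sets between 300 and 1000 and 0.066 above 1000. Neuron markers had a median of 0.094 on untreated array 1, with 15 of 15 above their mean. The 9 astrocyte genes had a median of 0.019.

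The shared low point of Slc1a2, Slc1a3 and Gja1 on untreated array 2 lay at -0.17, -0.16 and -0.13. Their mean intensities fall between 300 and 1000, and in that band the median over 6240 probe sets on this array was -0.044. Of the 8 markers in the band, 2 were above their mean there, as were 28.7% of all probe sets of the band. Over the 9 astrocyte genes, 6 were above their mean on this array, with a median of 0.023. Probe sets below the filter stood the other way on untreated array 2, at a median of 0.077. Of the 5 markers below the filter, Gfap, Gjb6 and Cspg4 were at 0.090, 0.15 and 0.085. Hes1 and Hopx were at -0.073 and -0.27. S100b was at 0.29 on this array and at -0.25 and -0.27 on untreated array 1 and C1q array 2. Mural and meningeal markers had medians of 0.10, -0.14 and -0.094 on the same 3 arrays, with 10, 3 and 2 of 12 above their mean. Their summed intensity ran from 7844 to 8376 in untreated and from 7664 to 7968 in C1q samples. Acta2, a smooth muscle actin gene, alone read 6533 to 7013, so the sum is mainly a value of its probe set. Tagln, Rgs5 and Pdgfrb of the same list read 48.7 to 62.1, 64.1 to 82.7 and 126 to 147. Whether the Acta2 value reflects RNA of that gene alone was not tested. On the same arrays, in that order, the medians were 0.10, -0.033 and -0.073 for endothelial markers and 0.059, -0.055 and -0.072 for microglial markers. They were 0.077, -0.029 and -0.028 for all probe sets below the filter. These 3 arrays were named because S100b lay farthest from its mean there. On untreated array 3, C1q array 1 and C1q array 3, S100b was at 0.089, 0.13 and 0.0018. The mural and meningeal medians on those arrays were 0.0029, 0.015 and 0.041. They were 0.017, 0.0073 and 0.030 for endothelial and -0.011, 0.030 and 0.034 for microglial markers. The part of these 3 kinds of cells, or of dimness, in the values of S100b was not tested.

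On C1q array 2 the dim markers were low. Of 12 markers with a mean between the filter and 300, only Prom1 was above its mean on this array, and their median was -0.067. For all 6523 probe sets of that band the median was -0.0071 and 47.8% were above their mean. The medians on this array were -0.066 for astrocyte and -0.062 for oligodendrocyte lineage genes. They were -0.072 for microglial, -0.073 for endothelial and -0.094 for mural and meningeal markers. Of these lists 10 of 13, 8 of 10 and 5 of 12 genes lay below the filter, where the median of all probe sets was -0.028. Neuron markers were at 0.0045 and radial glia and Notch genes at 0.0012. Whether the samples differed in their share of non-neuronal cells was not tested.

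**Figure D3:**
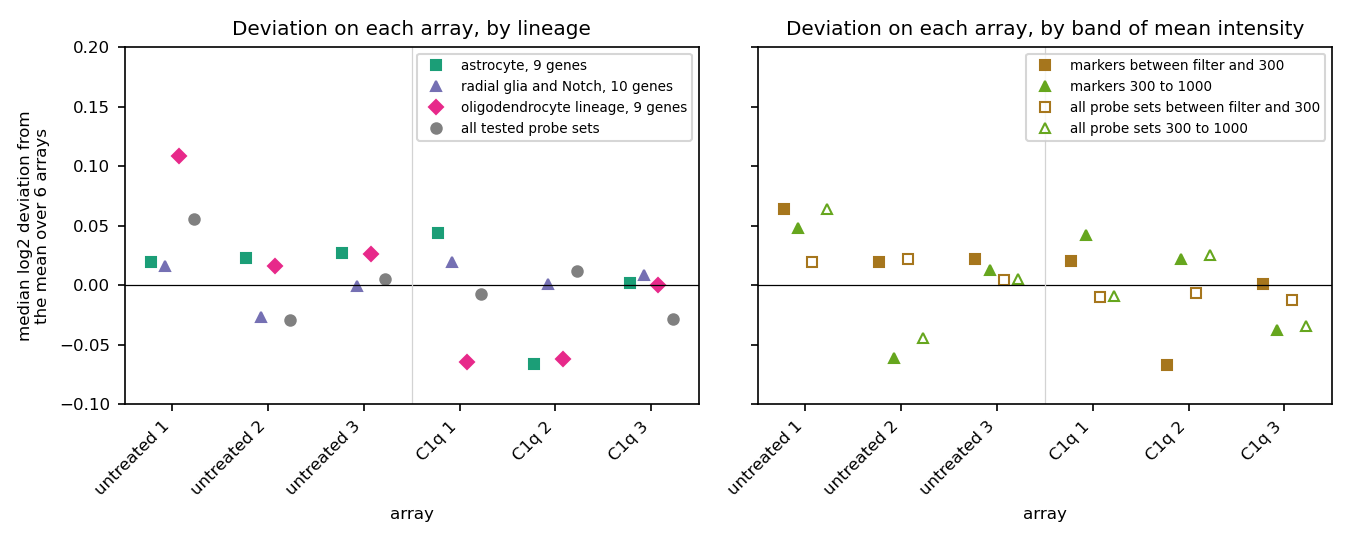
Median log2 deviation of the markers from their own mean over 6 arrays, on each array, by lineage beside all tested probe sets (left) and by band of mean intensity, with filled points for markers and open points for all probe sets of the band (right); points of an array are set apart sideways. Oligodendrocyte lineage genes lie at 0.11 on untreated array 1, and markers between the filter and 300 lie at -0.067 on C1q array 2, where all probe sets of that band lie at -0.0071.

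Further genes of the same lineages were read from longer lists. Of 13 tested astrocyte genes beyond the markers, 0 were called, with 3 means higher and 10 lower, a balance that stayed at 3 and 10 with quantile normalization and with median centring. The median log2 fold change was -0.050. Clu, which encodes the chaperone clusterin, had the lowest fold change at 0.916, with means of 484 ± 25.6 and 442 ± 2.22 (SD, n = 3 each). The groups did not overlap for 2 of the 13, or 15.4%, against 4.96% of all tested genes. They were Clu and Ttyh1, a membrane protein gene of progenitors and astrocytes that was named after its values were seen. Ttyh1 read 931, 937 and 907 untreated and 867, 886 and 898 after C1q. Acsbg1, a lipid enzyme gene, had the highest fold change at 1.05.

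Of 7 tested oligodendrocyte lineage genes beyond the markers, 0 were called, 3 means were higher and 4 lower. Cldn11, a tight junction protein of myelin that meningeal cells make as well, had the lowest fold change among the tested genes of all lists, at 0.846 (95% interval 0.699 to 1.02). It read 154, 211 and 156 untreated and 158, 145 and 128 after C1q, so that untreated array 2 stands above the other 5 arrays. Ptprz1, a phosphatase of precursors and radial glia, had a fold change of 1.02. Opalin, Ermn, Mal, Mag and Enpp6, the 5 of this list below the filter, ran from 27.7 to 91.8 over all arrays. Maturing oligodendrocytes make these genes, but also Mobp, Ugt8 and Bcas1, which passed the filter. Mobp read 120 to 144, Ugt8 91.9 to 128 and Bcas1 105 to 112 over all arrays. All of these were named after their values were seen.

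The lists for other cells gave no called gene. Among 15 neuron markers, 6 had a higher and 9 a lower mean, or 5 and 4 a lower one with quantile normalization and median centring. Their fold changes ran from 0.958 for the growth cone gene Gap43 to 1.06 for the neurofilament gene Nefl. Of 9 tested genes of neuronal progenitors and cycling cells 3 means were higher and 6 lower, or 6 and 5 lower under these scalings, from 0.938 for the cell cycle kinase gene Cdk1 to 1.03 for the replication gene Mcm6. Fold changes were 0.928 for C1qb, a chain of C1q itself, and 1.10 for the lysosomal gene Cd68 among microglial markers. They were 0.973 for Flt1 and 1.00 for Cldn5 among endothelial markers, and 0.956 for Pdgfrb and 1.02 for Igf2 among mural and meningeal markers. With these scalings 3 and 4 of the 7 tested mural and meningeal means were lower, where 4 were as deposited. In the blood list 4 means were higher and 2 lower, or 0 lower under both scalings. In limma 3 of its 6 genes had an unadjusted p under 0.05, against 437 of 17529 probe sets and 66 of 9652 tested genes. All 3 were globin genes, higher after C1q with groups that did not overlap. Groups did not overlap in either direction for 5.72% of tested probe sets and 4.96% of tested genes. The 6 genes summed to 2900 to 3329 on untreated and 3362 to 3593 on C1q arrays, most of it from the globins, with fold changes of 1.19 for the globin gene Hbb and 0.987 for the heme enzyme gene Alas2. The part of blood cells in the values of the glial markers was not tested.

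**Figure D4:**
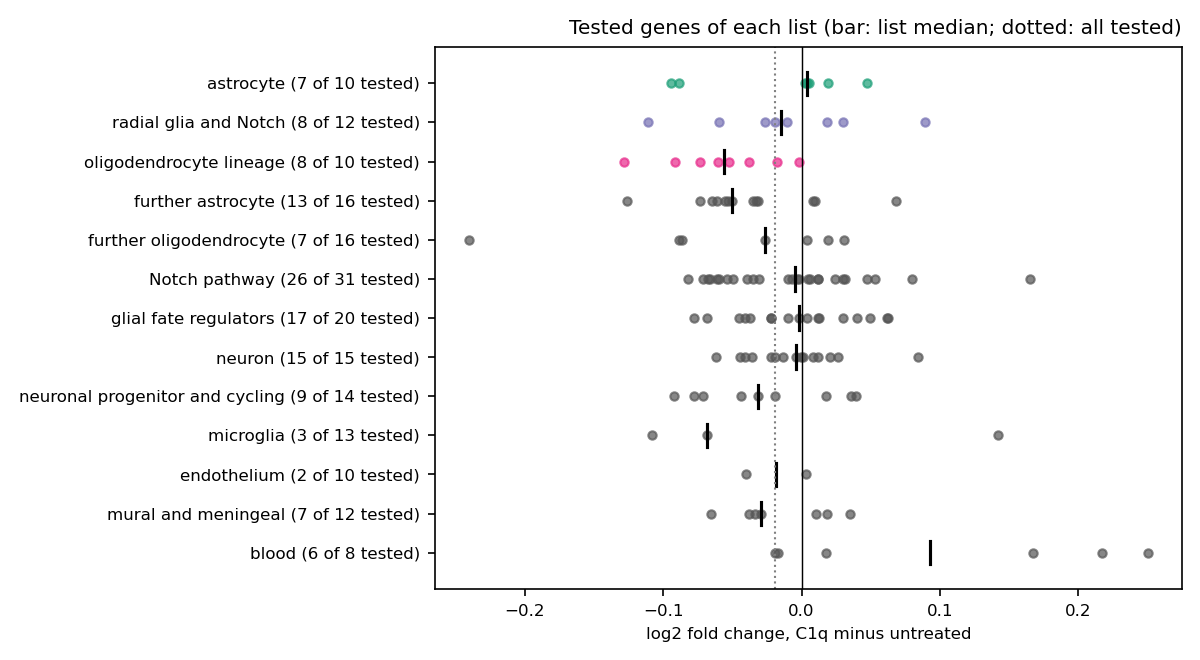
Log2 fold change, C1q minus untreated, of each tested gene in the marker and pathway lists, with a black bar at each list's median and a dotted line at -0.019, the median of all tested probe sets. The 3 lineages described lie between -0.13 and 0.09, and 3 globin genes of the blood list lie between 0.17 and 0.25.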

How the data were processed

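RNA of 3 untreated and 3 C1q-treated samples of cultured neurons was measured on 6 arrays, with 1 probe set intensity per array for 29215 probe sets. Biotinylated cRNA was made by the maker's standard procedure, per the labels' protocols. The deposited intensities are on a linear scale, and how the authors summarised and normalized them is not given in the sources used here. Symbols came from the platform annotation, of which 15310 probe sets name exactly 1 gene, and were checked by gene identifier against RefSeq (GRCr8), which changed 0. The members and lists were chosen with earlier results of these data known. All members are named, and of each other list the tested genes of highest and lowest fold change. Array medians differed by 0.070 log2, under a limit of 0.1, so no further scaling was applied. Values were analysed as log2(intensity + 16) by limma 3.58.1 in R 4.3.3 (lmFit, then eBayes with its variance prior following intensity), on the 17529 probe sets of highest mean. The Benjamini-Hochberg adjustment covers all of these, and a call means an adjusted p under 0.05. The fit was tested on simulated data. The labels number the samples 1 to 3 in each group but do not state pairing, so the numbers were not taken as pairs. Deviations of same-numbered arrays from their group means correlated at 0.014, -0.45 and -0.13. Those of differently numbered arrays of the 2 groups correlated at -0.37 to 0.45. With 3 arrays per group, these correlations cannot decide whether samples were paired. The alternatives were quantile normalization, median centring, the brightest 40%, no filter, pseudocounts of 1 and 64, array weights, a prior without trend, a block on the replicate number, averaged probe sets for a gene and leaving out each array. The number of arrays limits the precision.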

Additional observations from a re-analysis of the deposited data

How the results depend on the processing

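No probe set was called with quantile normalization, median centring, the brightest 40%, pseudocounts of 1 or 64 or no trend. Array weights gave 130 higher and 317 lower calls, 1 of them a marker (Fabp7), the replicate number as a block 9 higher and 0 lower, and no filter 1 lower. Leaving out each array gave 0 to 28 higher and 0 to 10 lower, all without untreated array 2, and no marker. The median log2 fold change of astrocyte genes was -0.060 with array weights and -0.033 to 0.00093 with an array left out. It was 0.027 with quantile normalization and 0.029 with median centring. That of radial glia and Notch genes was 0.022 with quantile normalization, 0.031 with median centring and -0.0091 to 0.028 with an array left out, and that of oligodendrocyte lineage genes -0.069 to -0.0055. The sign turned for some uncalled markers, and the cause was not tested. With quantile normalization log2 fold changes became 0.0049 for Vim, 0.0087 for Dll1, 0.013 for Pdgfra and 0.023 for Mbp, and with median centring 0.0072, 0.016, 0.0091 and 0.025, and 0.00035 for Hes5. With array weights they were -0.079 for Slc1a3, -0.010 for Aldh1l1, -0.060 for Gja1, 0.0020 for Vim, 0.0011 for Dll1, 0.013 for Pdgfra, 0.11 for Mbp and 0.086 for Mog. The mean of its probe sets gave 0.0031 for Mbp. Ranges with an array left out were -0.033 to 0.036 for Aldh1l1, -0.048 to 0.072 for Aqp4, -0.055 to 0.061 for Dll1, -0.060 to 0.055 for Gja1, -0.062 to 0.014 for Hes5, -0.070 to 0.11 for Mbp, -0.11 to 0.011 for Mog, -0.092 to 0.0039 for Nes, -0.11 to 0.0064 for Olig1, -0.088 to 0.032 for Pdgfra, -0.23 to 0.035 for S100b, -0.025 to 0.098 for Slc1a2, -0.054 to 0.073 for Slc1a3, -0.0078 to 0.042 for Sox2 and -0.036 to 0.0096 for Vim. Signal over background is unknown, which limits the 5 markers below the filter and the dim ones above it.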
